A study of Mus musculus with 8 samples.

Results

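The receptors for interleukin 33 (IL-33), IL-18 and IL-1 and the proteins that carry their signal to TRAF6 were followed in peritoneal mast cells (PMCs). They are the 10 genes Il1rl1, Il1rap, Il18r1, Il18rap, Il1r1, Myd88, Irak4, Irak1, Irak3 and Traf6, taken by gene name from a table of 55359 genes. IL-33 binds ST2, the product of Il1rl1, which then recruits the accessory chain IL-1RAcP, the product of Il1rap. IL-18 binds the product of Il18r1, which pairs with that of Il18rap. The paired receptors gather the adaptor MYD88 and the IRAK kinases through their TIR domains, and TRAF6 passes the signal on to the NF-kB and MAP kinase pathways. Mast cells are known for high levels of ST2, and IL-33 makes them secrete cytokines.

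RNA was sequenced from 8 untreated cultures of wild-type cells of the C57BL/6x129/Sv background. There were 6 primary WT PMC cultures, 3 from female and 3 from male mice, and 1 library each of PMC-303 and PMC-306, which are lines that arose spontaneously in aged PMC cultures. Both lines were kept with 10% FCS and 5 ng/ml stem cell factor (SCF) and the primary cultures with 15% FCS and 20 ng/ml SCF, and IL-3 was the same for all. Medium and line formation therefore cannot be told apart in these libraries. The paper reports that PMC-306 kept with the FCS and SCF of primary cultures had unchanged surface ST2 and lower surface KIT. It names no RNA level of the 10 genes under that medium. Each line is a single culture that grew out. The labels give no sex for either line, and the paper reports a male karyotype for PMC-306. The libraries held 15918757 to 24180226 estimated counts, and values are given as CPM, which are counts scaled to library sizes set by the trimmed mean of M values (TMM). A difference between the lines and the primary cultures was tested with limma on log2(CPM + 0.1), called at an adjusted p under 0.05 over 14529 genes. The test compares the mean of the 2 lines, of 1 library each, with the mean of the primary cultures. A call can therefore rest mainly on 1 line, and values of either line alone have no replicates behind them.

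The cultures carried mast cell transcripts. Cpa3, a granule carboxypeptidase, was at 23601 CPM in PMC-303, at 22835 CPM in PMC-306 and at 21762 to 38182 CPM in the primary cultures. Of all genes tested 15.5% were called lower in the lines and 18.3% higher. Of the 10 mast cell markers listed, 3 were called lower and 0 higher. They were Anpep, which encodes CD13, with a log2 difference of -2.68 and an adjusted p of 8.03e-05 (limma), Fcer1a, the IgE-binding chain of its receptor, with -1.36, and Kit, the SCF receptor, with -0.88. Of the 7 macrophage markers none was called by limma, 3 had a level that could be tested, and Csf1r, C1qa, C1qb and Mrc1 stayed at or below 0.230 CPM everywhere. Their summed level was 7.12 CPM in PMC-303 and 7.22 to 68.7 CPM in the primary cultures but 441.2 CPM in PMC-306, of which Adgre1 made up 426.0 CPM. The lymphocyte markers summed to 0.919 to 4.86 CPM and the granulocyte markers to 0.638 to 3.83 CPM in any library. The stromal and mesothelial markers were near 0 apart from Pecam1, which is expressed in blood cells too. The part of other cells in the results below was not tested.

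In both lines the IL-33 receptor, its accessory chain, the IL-18 binding chain, Myd88 and Irak1 had lower levels than in the primary cultures. Of the 10 genes 5 were called lower and 0 higher, where 15.5% of all genes tested were called lower and 18.3% higher. All 10 passed the filter on low counts. Their median log2 difference was -0.51, against -0.01 over all genes tested. Of the 5 receptor chains 3 were called, as were 2 of the 5 signalling proteins. By deposited TPM only Il18r1 of the 5 was called by limma. The remaining 5 genes were not called, and among these Irak3 stood above all primary cultures in PMC-303 and below all of them in PMC-306. A bulk library does not tell less RNA per cell from fewer cells that make it.

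**Figure D1:**
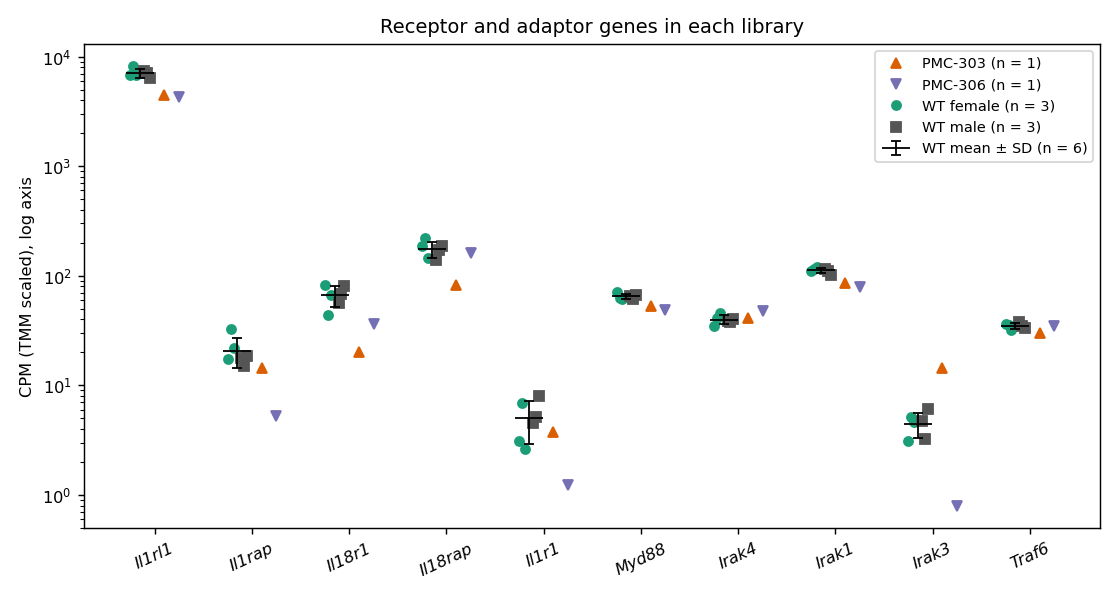
Level of the 10 genes in each of the 8 libraries, as TMM-scaled CPM on a log axis, with the mean ± SD of the 6 primary WT cultures as a bar. Il1rl1 lies far above the other genes in every library, and the 2 lines fall on either side of the primary cultures for Irak3.

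Among the genes Il1rl1 is exceptional in level. Per length, as TPM (counts scaled for transcript length and library size), it stood at 1569 to 2604 TPM in the primary cultures and held rank 30 to 53 among all genes. In PMC-303 it was at 1495 TPM and rank 55, and in PMC-306 at 1456 TPM and rank 67. The other genes were between 0.581 and 58.5 TPM in the primary cultures. Next came Il18rap at 47.1 ± 8.10 TPM (SD, n = 6) and Irak1 at 46.9 ± 6.68 TPM, which overlapped each other, and Myd88 at 35.4 ± 3.27 TPM, which overlapped Irak1. Il18r1 at 21.7 ± 4.52 TPM lay below all values of Myd88 and overlapped Irak4 at 17.0 ± 2.74 TPM. Traf6 at 8.402 ± 1.004 TPM and Il1rap at 5.28 ± 1.92 TPM overlapped, and the lowest pair, Irak3 at 1.90 ± 0.475 TPM and Il1r1 at 1.05 ± 0.407 TPM, did so too.

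Il1rl1 lies on chr1:40468730-40504575, plus strand, of GRCm39, in a row of 6 receptor genes. GENCODE M39 gives it 5 transcripts. Of their first exons 2 that lie 10.1 kb apart are called distal and proximal here. The most abundant transcript starts elsewhere, at base 40479788, and an incomplete one at base 40475749. Membrane ST2 and soluble ST2, a secreted decoy that binds IL-33 without signalling, share their exons up to base 40485835. There the membrane transcripts splice to an exon that starts at base 40489235, whereas the soluble transcripts read on into the intron and stop after 29 bases. The 2 sequences around this point are given to show what separates the forms, in lower case for the last 30 shared bases and in capitals for the bases each form has on its own, which end with the stop codon TGA in the soluble form.
membrane form: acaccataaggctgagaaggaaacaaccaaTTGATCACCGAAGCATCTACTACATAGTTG
soluble form: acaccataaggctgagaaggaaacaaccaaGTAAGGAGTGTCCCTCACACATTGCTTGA
The membrane stretch joins chr1:40485806-40485835 to chr1:40489235-40489264, and the soluble one is chr1:40485806-40485864, both on the plus strand.

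The sequences before the 2 first exons are printed because the transcripts that start there are compared below. They are the 250 bases before each start in RefSeq, taken from a GRCm38.p6 table and placed by exact match on GRCm39 at chr1:40468480-40468729 and chr1:40478539-40478788, plus strand. The last bases of the proximal window overlap the first exon of GENCODE. Capitals mark the motif AGATAA, its variant AGATAG and the related TGATAA or the like TGATAG on either strand, which are letters that GATA factors are known to bind.
distal promoter: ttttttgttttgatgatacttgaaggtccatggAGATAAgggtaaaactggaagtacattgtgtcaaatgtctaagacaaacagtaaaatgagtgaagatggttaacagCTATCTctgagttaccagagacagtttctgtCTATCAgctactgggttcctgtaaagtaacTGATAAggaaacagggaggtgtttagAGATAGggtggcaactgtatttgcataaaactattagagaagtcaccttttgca
proximal promoter: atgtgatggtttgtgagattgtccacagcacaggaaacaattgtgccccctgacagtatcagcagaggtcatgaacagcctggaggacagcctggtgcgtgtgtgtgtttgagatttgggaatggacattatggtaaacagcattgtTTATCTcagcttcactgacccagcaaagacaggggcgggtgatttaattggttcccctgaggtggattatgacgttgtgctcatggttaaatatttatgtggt
The distal window held 5 matches and the proximal one 1. Of 32851 promoter windows of this length 26.5% held at least 1 match and 0.0426% held at least 5. All 10 genes were found in the table, with 16 windows in all, and among the windows of the other 9 genes only those of Il18rap and Irak3 held a match, with at most 1 in a window. Gata2, a mast cell GATA factor, was at 582.2 CPM in PMC-303, 662.3 CPM in PMC-306 and 495.3 to 599.8 CPM in the primary cultures, with an adjusted p of 0.319 (limma). A match is a description of the letters only.

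Il1rl1 was lower in both lines. It stood at 4444 CPM in PMC-303 and at 4312 CPM in PMC-306. In the 6 primary cultures it ranged from 6307 CPM through a median of 6931 CPM to 8199 CPM. The groups did not overlap, and the lines lay close to each other. The log2 difference of the lines from the primary cultures was -0.69 with a standard error of 0.16, a 1.61-fold lower level with a limma adjusted p of 0.0123. With a single line kept the direction stayed and the adjusted p was 0.0530 for PMC-306 and 0.0647 for PMC-303, where the lone library is assumed to vary like the primary cultures. The call was also lost by deposited TPM (0.0870) and against the female or the male primary cultures alone (0.0968 and 0.0696).

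Both the membrane and the soluble transcripts of Il1rl1 fell. The most abundant encodes the membrane form and is annotated without either first exon. It was at 3686 CPM in PMC-303, at 3573 CPM in PMC-306 and at 5234 to 6800 CPM in the primary cultures, with a log2 difference of -0.69 ± 0.10 (SE) and an adjusted p of 0.00423 over 45029 transcripts. The soluble transcript that starts at the distal first exon, called the distal soluble transcript here, was at 619.0 and 548.6 CPM in PMC-303 and PMC-306 against 830.4 to 1114 CPM, with a log2 difference of -0.69 ± 0.12 and an adjusted p of 0.00958. These 2 transcripts changed by the same factor of 1.61.

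The soluble transcript with the proximal first exon was at 97.99 CPM in PMC-303 and at 109.6 CPM in PMC-306, below the 179.8 to 254.8 CPM of the primary cultures. Its log2 difference was -0.999 ± 0.15, or 1.998-fold lower, with an adjusted p of 0.00529 (limma). The membrane transcript with the proximal first exon was not called. It was at 40.8 CPM in PMC-303, below the primary range of 61.3 to 99.0 CPM, and at 81.1 CPM in PMC-306, inside it, with an adjusted p of 0.472. An incomplete transcript of Il1rl1 stayed at or below 1.499 CPM and had an adjusted p of 0.0968, which was 0.0152 with a log2 difference of -3.32 without PMC-303. In all 3 of 5 transcripts were called lower and 0 higher, where 4.92% of all transcripts tested were called lower and 5.46% higher. Without PMC-306 the adjusted p of the distal soluble transcript was 0.0717.

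The share of soluble transcripts in all Il1rl1 counts did not differ detectably between the lines and the primary cultures. It was 16.1% in PMC-303, with a 95% Wilson interval of 15.9% to 16.4%, and 15.3% in PMC-306, with an interval of 15.03% to 15.5%. In the primary cultures it was 16.3% ± 0.684 (SD, n = 6), from 15.4% to 17.5%. The difference of the means was -0.570 percentage points, with an exact permutation p of 0.321 (two-sided, 28 splits, smallest p possible 0.0357). The intervals cover counting error only.

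What the share means depends on the unit. By TPM, which corrects for length, soluble transcripts made up 45.0% in PMC-303, 43.0% in PMC-306 and 43.3% to 46.2% in the primary cultures, where the distal soluble transcript has 1216 bases of exon and the main membrane transcript 5072. Of the soluble counts most belong to the distal soluble transcript, which alone held 13.9% and 12.7% of Il1rl1 counts in PMC-303 and PMC-306 and 12.7% to 13.8% in the primary cultures. The annotation gives the distal first exon to this 1 transcript and to 0 membrane transcripts, and it runs only 48 bases past the shared exons. How many of its counts come from membrane transcripts that start at the distal exon was not tested. Leaving it out, the soluble share was 2.56% in PMC-303, 2.91% in PMC-306 and 3.42% ± 0.568 (SD, n = 6) in the primary cultures, with an exact permutation p of 0.107, a setting chosen after the data were seen.

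**Figure D2:**
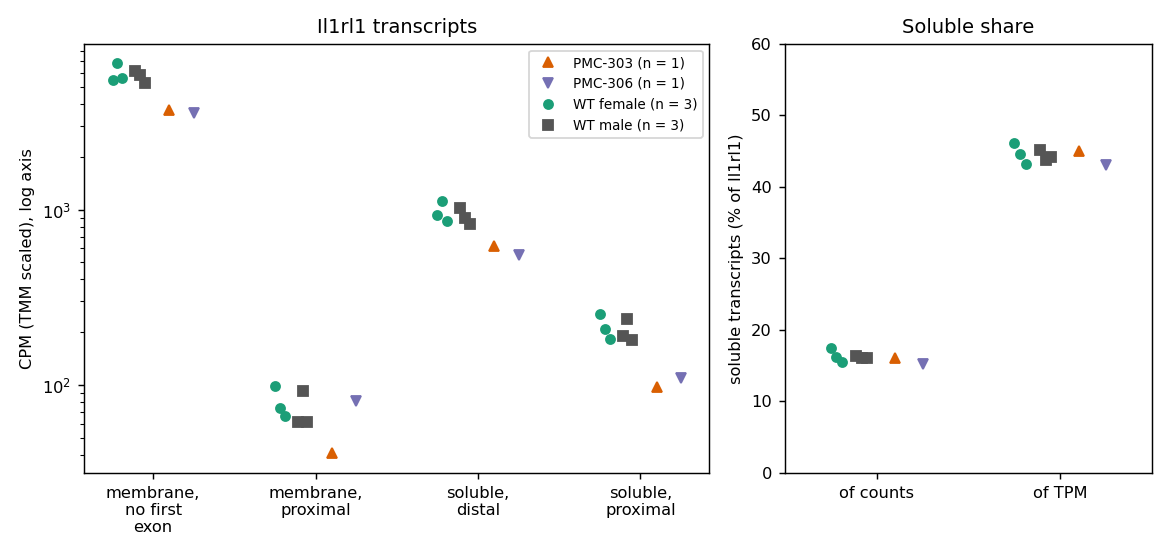
Left, TMM-scaled CPM (log axis) of the 4 complete Il1rl1 transcripts in each library. Right, soluble transcripts as a percentage of all Il1rl1 counts and of all Il1rl1 TPM, where lines and primary cultures lie close together on either scale.

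Il1rap, on chr16:26400350-26548880 (plus strand), encodes the accessory chain that ST2 and the IL-1 receptor share. It was at 14.2 CPM in PMC-303 and at 5.25 CPM in PMC-306, and from 14.99 CPM through a median of 18.1 CPM to 32.4 CPM in the primary cultures. Both lines were below all primary cultures, but PMC-303 by less than 1 CPM. The log2 difference was -1.19 ± 0.38 (SE), or 2.28-fold lower, with a limma adjusted p of 0.0411. It rested on PMC-306, since without that line the log2 difference was -0.48 with an adjusted p of 0.357, and without PMC-303 it was -1.90 with 0.00675. The adjusted p was also between 0.0521 and 0.0684 without female 1, female 2, female 3, male 1 or male 3. It was 0.0578 with no filter on low counts, 0.0652 with precision weights for each count (voom), 0.0979 by deposited TPM, and 0.108 and 0.168 against the female or the male primary cultures alone. Il1rap stayed called under 7 of 18 alternatives.

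Membrane and short forms of Il1rap are both annotated. The transcript of 570 codons, which encodes the membrane chain, held most counts, and a short transcript of 360 codons held 26 of 107 counts in PMC-306, a share of 24.3% with a 95% Wilson interval of 17.2% to 33.2%. In PMC-303 the share was 8.67% (interval 6.14% to 12.1%), and in the primary cultures it was 9.70% ± 3.38 (SD, n = 6), from 5.28% to 13.7%. PMC-306 lay above all other libraries, and with 1 library no test was made. Measured per length, Il1rl1 exceeded Il1rap 292-fold to 550-fold in the primary cultures, 390-fold in PMC-303 and 868-fold in PMC-306.

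The IL-18 receptor genes follow Il1rl1 directly on chromosome 1. Il18r1, the ligand-binding chain, occupies chr1:40504712-40540014 (plus strand) and starts 136 bases after the end of Il1rl1, and Il18rap, the accessory chain, occupies chr1:40554522-40590865 (plus strand). Il18r1 was at 20.1 CPM in PMC-303 and at 36.2 CPM in PMC-306, against 44.1 CPM at the lowest, 67.2 CPM at the median and 83.1 CPM at the highest of the primary cultures. Both lines lay below the primary range. The log2 difference of -1.26 ± 0.28 (SE), a 2.402-fold lower level, had a limma adjusted p of 0.00897, which became 0.0794 with a log2 difference of -0.84 when PMC-303 was left out, and 0.0803 against the female primary cultures alone.

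Il18rap was called only when PMC-303 stood alone. Its level was 82.2 CPM in PMC-303, 160.7 CPM in PMC-306 and 138.3 to 219.5 CPM with a median of 179.5 CPM in the primary cultures. PMC-306 was inside the primary range and PMC-303 below it. With both lines the log2 difference was -0.58 ± 0.25 (adjusted p of 0.109, limma), and with PMC-303 alone it was -1.07 with an adjusted p of 0.0126. By TPM Il18rap exceeded Il18r1 in every library, 1.74-fold to 3.997-fold in the primary cultures, 3.20-fold in PMC-303 and 3.99-fold in PMC-306.

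Il1r1, the signalling IL-1 receptor, at chr1:40264174-40356417 (plus strand), was scarce. It was at 3.79 CPM in PMC-303, at 1.23 CPM in PMC-306 and at 2.64 to 7.97 CPM in the primary cultures, with a median of 4.83 CPM. Only PMC-306 was outside the primary range. The log2 difference was -1.07 ± 0.51 with a limma adjusted p of 0.141, and without PMC-303 it was -1.85 with an adjusted p of 0.0449. Its counts per library were 25 to 158, which limits the precision.

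The other receptors of this row of genes were measured as well. Il1r2, a decoy receptor for IL-1, was at 39.4 CPM in PMC-303, at 148.1 CPM in PMC-306 and at 19.8 to 99.2 CPM in the primary cultures (adjusted p of 0.274, limma). Il1rl2, the IL-36 receptor, was at 6.75 and 4.91 CPM in PMC-303 and PMC-306 and at 6.11 to 12.3 CPM in the primary cultures (adjusted p of 0.197). Of the 6 receptor genes over 477.6 kb, PMC-306 was below the primary range for Il1r1, Il1rl2, Il1rl1 and Il18r1 and above it for Il1r2. PMC-303 was below it for Il1rl1, Il18r1 and Il18rap. As a background, 32.3% of all genes tested lay below the primary range in PMC-306 and 30.0% in PMC-303.

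**Figure D3:**
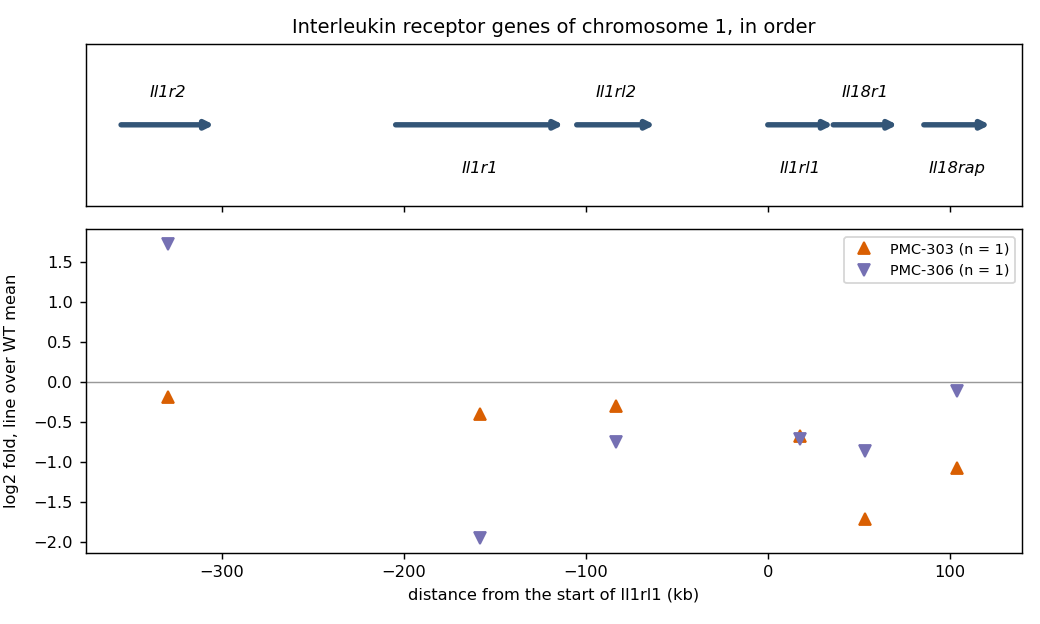
Position of the 6 receptor genes of chromosome 1, as distance in kb from the start of Il1rl1 (arrows point in the direction of transcription), and the log2 fold of each line against the mean of the 6 primary WT cultures. The 2 lines coincide at Il1rl1 and differ most at Il1r2 and Il1r1.

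Downstream of the receptors, the adaptor and a kinase were lower in both lines, by smaller folds than the receptors called. Myd88, on chr9:119165000-119170486 (minus strand), encodes the adaptor of these receptors and of most Toll-like receptors. It was at 53.4 CPM in PMC-303, at 49.0 CPM in PMC-306 and at 61.5 to 71.0 CPM in the primary cultures, with a median of 64.0 CPM. The groups did not overlap. The log2 difference of -0.34 ± 0.08 (SE), a 1.26-fold lower level, had a limma adjusted p of 0.00984, which was 0.0721 without PMC-306, 0.2998 by deposited TPM, and 0.0893 and 0.0542 against the female or the male primary cultures alone.

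Irak1, at chrX:73056964-73067554 (minus strand), encodes a kinase that binds MYD88 through IRAK4 and then TRAF6. It was at 86.1 CPM in PMC-303 and at 79.1 CPM in PMC-306, below the 100.6 to 119.2 CPM of the primary cultures, whose median was 113.0 CPM. Its log2 difference was -0.44 ± 0.08 (SE), or 1.35-fold lower, with the smallest adjusted p of the 10 genes, 0.00352 (limma). Leaving out any single library left it called, but by deposited TPM the call was lost, with a log2 difference of -0.35 and an adjusted p of 0.160.

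Irak4 and Traf6 showed little difference. Irak4, on chr15:94441161-94479696 (plus strand), encodes the first kinase of the complex and was at 41.1 CPM in PMC-303, 47.5 CPM in PMC-306 and 34.7 to 46.1 CPM in the primary cultures. Its log2 difference of 0.16 had a 95% interval of -0.10 to 0.41. Traf6, on chr2:101508519-101533545 (plus strand), encodes the ubiquitin ligase that follows the IRAKs and was at 30.2, 34.6 and 31.8 to 37.9 CPM in PMC-303, PMC-306 and the primary cultures. Its log2 difference of -0.11 had an interval of -0.32 to 0.09. The limma adjusted p was 0.314 for Irak4 and 0.369 for Traf6, and both intervals hold a difference of 0.

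Irak3 separated the lines from each other. It lies on chr10:119975568-120038035 (minus strand) and encodes IRAK-M, a pseudokinase that dampens this pathway. It had 353 counts in PMC-303, or 14.5 CPM, and 16 counts in PMC-306, or 0.786 CPM. The primary cultures ranged from 3.12 CPM through a median of 4.64 CPM to 6.14 CPM. Hence PMC-303 was 3.19-fold above the primary mean and PMC-306 was 5.17-fold below it, and the lines differed 18.5-fold. Over both lines together the log2 difference was -0.31 with an adjusted p of 0.808 (limma). In fits with 1 line kept it was 1.71 with an adjusted p of 0.0122 for PMC-303 and -2.33 with 0.00379 for PMC-306. Of all genes tested 4.38% left the primary range on opposite sides in the 2 lines.

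**Figure D4:**
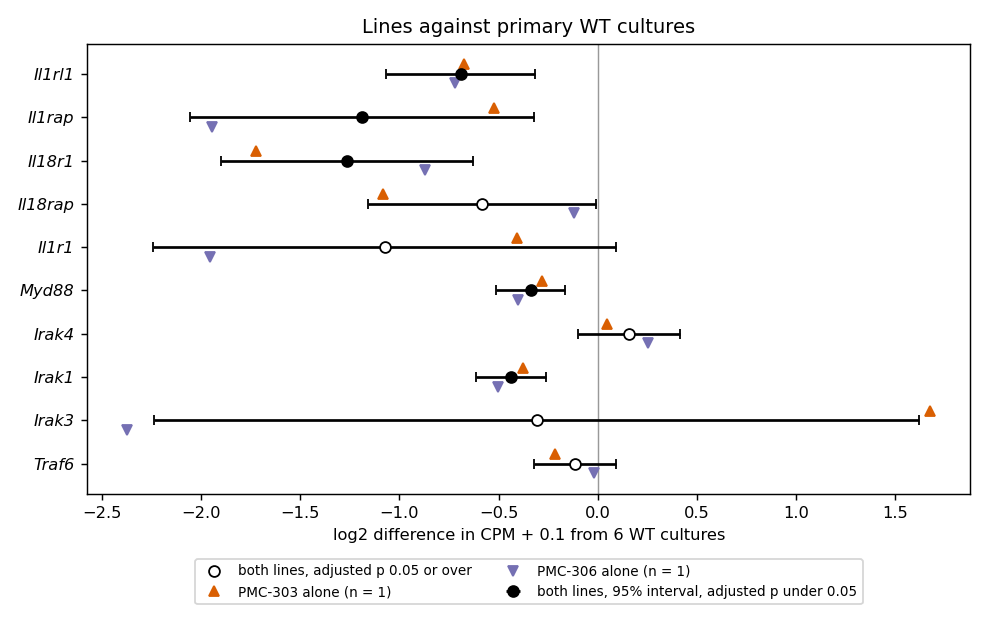
Log2 difference of the lines from the 6 primary WT cultures for each gene, with the 95% interval of the limma fit (filled where the adjusted p is under 0.05), and the log2 fold of each line alone as a triangle. The 2 lines lie close together for Il1rl1, Myd88 and Irak1 and on opposite sides of 0 for Irak3.

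Counted by single line, 7 of the 10 genes were below all primary cultures in PMC-303 and 7 in PMC-306, and 1 gene each was above, Irak3 in PMC-303 and Irak4 in PMC-306. Of all genes tested 30.0% were below the range in PMC-303 and 32.3% in PMC-306, and 33.4% and 32.0% were above it. The 5 genes below the range in both lines were Il1rl1, Il1rap, Il18r1, Myd88 and Irak1, and 0 were above it in both, where 20.1% of all genes tested were below the range in both lines and 23.0% above it. The lines differed most in Irak3, followed by Il1r1, 3.08-fold higher in PMC-303, and Il1rap, 2.71-fold higher in PMC-303. Il18rap and Il18r1 were 1.95-fold and 1.80-fold higher in PMC-306. For Il1rl1 the ratio of the lines was 1.03.

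Female and male primary cultures did not differ detectably in these genes. None of the 10 was called by limma, where 0.0438% of 13710 genes tested were called. Without adjustment a limma p under 0.05 was found for 0 of the 10 genes and for 456 of the 13710 genes tested. Il1rl1 was at 7253 ± 820 CPM (SD, n = 3) in female and at 6930 ± 567 CPM (SD, n = 3) in male cultures, and the log2 difference of female minus male was 0.06 with a 95% interval of -0.42 to 0.55. Il1rap had the smallest unadjusted p, 0.0935 in the limma fit, with 23.97 ± 7.68 CPM (SD, n = 3) in female and 17.1 ± 1.88 CPM (SD, n = 3) in male cultures. Il1r1 had the largest log2 difference, -0.56, with an interval of -1.52 to 0.41. Irak1, although X-linked, differed by 0.08 on the log2 scale with an interval of -0.10 to 0.26.

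Within the primary cultures Myd88, Irak1 and Traf6 varied least among the 10 genes and Il1r1 most. The coefficient of variation was 5.45% for Myd88, 5.83% for Irak1, 6.06% for Traf6 and 9.68% for Irak4. It was 9.23% for Il1rl1, 17.2% for Il18rap, 22.4% for Il18r1, 25.6% for Irak3, 30.5% for Il1rap and 41.7% for Il1r1. Il1r1 and Irak3 also had the fewest counts. Female culture 2 had the highest Il1rl1, Il1rap and Il18rap and the lowest Il18r1.

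The genes whose levels followed Il1rl1 most closely over the 8 libraries, out of 8749 genes whose mean reached 10 CPM, were Dalrd3 (Pearson r of 0.990 on log2 values), Ypel5 (0.989), Ftl1 (0.986), Yipf6 (0.986) and Mfsd1 (0.980). Ftl1, the ferritin light chain, was at 3519 CPM in PMC-303, at 3050 CPM in PMC-306 and at 6340 to 9830 CPM in the primary cultures. Of the 10 genes Irak1 came closest with 0.948, then Myd88 with 0.824 and Il1rap with 0.803, and Irak4 had -0.471. These r values describe 8 libraries of 2 kinds, which all genes share, and carry no test.

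The ligands of these receptors were at or near 0. Il33 had 0 counts in every library, which allows at most 0.123 CPM in PMC-303 and 0.187 CPM in the shallowest primary culture. Il18 was at 0.123 and 0.196 CPM in PMC-303 and PMC-306 and at 0.220 to 0.944 CPM in the primary cultures, and Il1a, Il1b and Il1rn did not exceed 0.262 CPM. Of 12 ligands and decoys 2 could be tested, with 1 lower and 0 higher. It was Il18bp, the secreted IL-18 decoy, at 2.76 CPM in PMC-303, 3.19 CPM in PMC-306 and 3.95 to 8.68 CPM in the primary cultures, with a log2 difference of -1.05 and a limma adjusted p of 0.0262. Its adjusted p was 0.123 without PMC-303 and 0.0728 without PMC-306. Of 4 other receptors of the family 2 were tested and 0 called by limma, and Sigirr, an inhibitory receptor, had an adjusted p of 0.695.

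Toll-like receptors, which share MYD88, went in both directions. Of 8 tested genes of 14 listed, 2 were higher, 2 lower and 4 not called, with a median log2 difference of 0.34. Over all genes tested 18.3% were called higher and 15.5% lower, which is the background for the other pathway lists too. Tlr1 was at 4.27 and 4.50 CPM in PMC-303 and PMC-306 and at 1.16 to 2.47 CPM in the primary cultures (adjusted p of 0.0125, limma). Tlr6 was at 4.25 and 18.1 CPM in PMC-303 and PMC-306 and at 1.01 to 6.73 CPM in the primary cultures (adjusted p of 0.309, limma). Estimated counts of Tlr1 and Tlr6 were fractional in every library, as where reads are divided between genes. How far the call of Tlr1 depends on that division was not tested. Tlr2 had 1 count in each line against 6 to 60 counts, or 0.316 to 2.64 CPM, in the primary cultures (adjusted p of 0.00774). Tlr4, the receptor for lipopolysaccharide, was at 58.9 and 56.5 CPM against 63.7 to 105.6 CPM, with a log2 difference of -0.57 and an adjusted p of 0.0489. Tirap, which links MYD88 to the receptors of this family, was higher by 0.78 (adjusted p of 0.0418). The call of Tlr1 was lost without either line (adjusted p of 0.0546 and 0.0670), as were those of Tlr4 and Tirap without PMC-306 (0.175 and 0.318). Tlr4 was not called either without PMC-303 (0.132), female 1, female 2, male 1 or male 2 (0.0664 to 0.0795), nor Tirap without female 1, female 2, female 3, male 1 or male 2 (0.0532 to 0.0728). Tlr4 also lost its call with median-of-ratios size factors (0.0514), library totals (0.0997), no filter on low counts (0.0756) and voom weights (0.0522), Tlr2 with voom weights (0.0819) and Tirap with no filter (0.0646).

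Of the adaptors and the TAK1 kinase complex around TRAF6, 13 of 14 were tested, with 3 higher, 4 lower and 6 not called, and a median log2 difference of -0.14. Tab2, a ubiquitin-binding subunit of the TAK1 complex, was at 145.3 and 158.8 CPM in PMC-303 and PMC-306 and at 101.4 to 111.7 CPM in the primary cultures, with a log2 difference of 0.53 and an adjusted p of 0.000679 (limma). Ube2n, the ubiquitin-conjugating enzyme that works with TRAF6, was higher by 0.37 (adjusted p of 0.00808) and Tab1 by 0.40 (0.0389). Tollip, which holds IRAK1 in check at the resting receptor, was at 125.2 and 92.1 CPM against 152.0 to 168.3 CPM, with a log2 difference of -0.57 and an adjusted p of 0.00441. Traf3 had -0.57 (adjusted p of 0.0265) and Tifa -0.96 (0.0326). The fourth lower gene, Peli3, was at most 1.43 CPM in any library and is named after its values were seen. Without PMC-306 the adjusted p was 0.247 for Tab1, 0.281 for Tifa and 0.2001 for Traf3. The calls of Tab1 and Tifa were also lost without some single primary cultures, with an adjusted p of 0.0542 to 0.0709, and that of Tab1 with no filter on low counts (0.0718).

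The NF-kB pathway had 2 genes higher, 4 lower and 11 not called of 17, with a median log2 difference of -0.05. Nfkb1, which encodes p105 and p50, was at 169.5 and 145.3 CPM in PMC-303 and PMC-306 and at 90.4 to 108.4 CPM in the primary cultures, with a log2 difference of 0.63 and an adjusted p of 0.0014 (limma). Otulin, a deubiquitinase, was higher by 0.60 (adjusted p of 0.00462). Among the lower genes Ikbkg, the NEMO subunit of the IKK complex, had -0.41 (0.00293), Chuk, its IKKα subunit, -0.52 (0.0253) and Nfkbie, an inhibitor of NF-kB, -0.53 (0.0167), and Tnip1, named after its values were seen, had -0.39. Chuk and Nfkbie had an adjusted p of 0.160 and 0.136 without PMC-306. Rela, the p65 subunit, was at 34.1 and 35.7 CPM against 33.2 to 40.0 CPM (adjusted p of 0.620).

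The MAP kinase arm had 4 genes higher, 1 lower and 9 not called of 14, with a median log2 difference of 0.05. Mapk14, which encodes p38α, was at 152.5 and 148.4 CPM in PMC-303 and PMC-306 and at 92.0 to 108.8 CPM in the primary cultures, with a log2 difference of 0.57 and an adjusted p of 0.00067 (limma). Its target kinase Mapkapk2 was higher by 0.47 (adjusted p of 0.00752), and Map2k7, named after its values were seen, by 0.32. Fos, an immediate early gene, was at 9.96 and 36.9 CPM against 0.157 to 2.89 CPM (adjusted p of 0.00879). Mapkapk3 was lower by 0.37 on the log2 scale, from 54.9 and 67.2 CPM in the lines to 73.1 to 83.8 CPM in the primary cultures (adjusted p of 0.0176). Without PMC-303 the adjusted p was 0.0620 for Mapkapk2 and 0.144 for Mapkapk3, and without PMC-306 that of Fos was 0.0776. With library totals Mapkapk3, Chuk, Nfkbie and Tlr4 were not called, with an adjusted p of 0.0541 to 0.0997. By deposited TPM these 4 genes and Tirap, Tab1, Tifa, Traf3, Tollip, Ube2n and Ikbkg were not called, with an adjusted p of 0.0535 to 0.258.

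Of 11 cytokines that mast cells are known to make after IL-33, 8 were tested in these untreated cells, with 0 higher and 1 lower, and a median log2 difference of -0.17. Ccl2, a monocyte chemokine, was at 186.4 CPM in PMC-303, at 234.0 CPM in PMC-306 and at 364.0 to 656.6 CPM in the primary cultures, with a log2 difference of -1.18 and a limma adjusted p of 0.00604. Il6 was at 24.99 and 49.5 CPM in PMC-303 and PMC-306 and at 24.3 to 31.9 CPM in the primary cultures (adjusted p of 0.338), and without PMC-303 it was higher with an adjusted p of 0.0105. Tnf was at 38.4 and 43.7 CPM against 26.2 to 40.1 CPM (adjusted p of 0.196). Il5, Il9 and Cxcl2 did not exceed 0.0982 CPM.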

How the data were processed

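Total RNA was sequenced from 8 cultures with stranded libraries. Per the labels and the paper, the authors trimmed reads with Trim Galore 0.6.7, mapped them with STAR 2.7.9a on GRCm39 and estimated gene and transcript abundance with Salmon 1.5.2, all within nf-core/rnaseq. The deposited values are estimated counts and TPM, and other columns were not used. A spreadsheet program had rewritten 3.37% of the gene count cells and 3.22% of the transcript count cells, 14 of the 80 cells of the 10 genes among them, and a count model was therefore not used. Rewritten cells were set back to numbers, after which gene counts of the 10 genes equalled the sums of their transcripts and 99.7% of all gene counts came within 0.2 counts of them. In 9340 gene TPM cells the position of the point was set from the counts, and 0 columns were left without a sample.

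Counts were scaled by TMM (computed in R 4.3.3), and genes with a count of about 10 in at least 2 libraries (3 for the sexes) and 15 in total were tested with limma 3.58.1 with a mean-variance trend on log2(CPM + 0.1) and Benjamini-Hochberg adjustment. The tests were checked on simulated data with differences larger than those of the members called, so the check does not cover differences of that size. The fits were the lines against all primary cultures, for genes and transcripts, and female against male primary cultures. The Il1rl1 share was compared by an exact permutation test. A fold of a single line is its CPM + 0.1 divided by the primary mean + 0.1. A count of 0 allows 3 counts, or 0.123 to 0.187 CPM, for counting error only. No primary library repeated another within sampling noise (lowest chi-square per degree of freedom 22.98 over 15 pairs). Female and male cultures share replicate numbers, which did not pair them.

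The members and lists were chosen with earlier results of these data known. Named genes are the 10 members, in each list the up to 3 called genes per direction with the largest difference and a mean of at least 1 CPM, fixed ligands, decoys and cytokines, identity markers, and the 5 genes most correlated with Il1rl1. Other scalings, offsets, filters, weights, TPM, single sexes and leaving out each library were tried. Gene positions are from GENCODE M39, in which all 10 identifiers were found. Python 3.11.15, numpy 2.4.6, pandas 2.3.3, scipy 1.17.1 and matplotlib were used.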

Additional observations from a re-analysis of the deposited data

Results flagged for a closer look

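Irak3 moved in opposite directions in the 2 lines: its log2 fold against the primary cultures was 1.68 in PMC-303 and -2.37 in PMC-306, and every primary culture lay between them. Each line has 1 library, and the difference between the lines was not tested.

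Il1r2 in female culture 1, at 99.2 CPM, lay far from the other 5 primary cultures, which ranged from 19.8 to 47.3 CPM. Among 44 measures searched for a culture that stands apart, this was the only one found, where chance at 1 in 20 gives about 2.2. Il1rl1 in the same culture was at 6796 CPM, inside the range of the others.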

How the results depend on the processing

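The number of the 10 genes called lower was 5, and 3 without PMC-306, namely Il18r1 and Irak1, which were among the 5, and Il18rap, which was not. Over all single libraries left out it was 3 to 5. It was 1 with deposited TPM (Il18r1) or with female primary cultures only (Irak1) and 2 with male ones only (Il18r1 and Irak1). Calls over all genes fell in these settings too. Genes called lower numbered 2255 of 14529 tested in the main fit and 961 of 14529 by TPM. They numbered 833 of 14317 with female and 1241 of 14185 with male cultures only. Genes called higher numbered 2665, 2347, 1327 and 1792 in the same order. Genes called higher numbered 0, or 1 (Irak3, 1.71) without PMC-306, so leaving out 1 library gave 0 to 1. Where 18.3% of all genes tested were called higher and 15.5% lower, 11 genes of the 7 pathway lists were higher and 13 lower. Without single libraries these were 7 to 11 and 7 to 14, with TPM 7 and 4, with female cultures only 5 and 1, with male cultures only 7 higher, and with library totals 8 lower. Library totals moved the median of all genes by 0.107 and TPM by 0.138 on the log2 scale, and the share of higher genes among all calls from 54.2% to 67.2% and 70.9%. With library totals the log2 fold in PMC-303 and PMC-306 was -0.18 and -0.28 for Myd88, -0.28 and -0.38 for Irak1, and -0.12 and 0.11 for Traf6, and with an offset of 1 CPM that of Irak3 in PMC-306 was -1.62.

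With 1 library left out, signs turned for Irak3 (from -2.33 to 1.71), Il6 (-0.19 to 0.80) and the proximal membrane transcript of Il1rl1 (-0.87 to 0.12). In the comparison of sexes, where 0 of the 10 genes were called by limma under any setting, the log2 difference turned sign for Il1rl1 (-0.0284 to 0.11), Il18r1 (-0.31 to 0.14), Il18rap (-0.010 to 0.29), Myd88 (-0.0366 to 0.0624), Irak4 (-0.0385 to 0.17), Irak3 (-0.35 to 0.10) and Traf6 (-0.0818 to 0.0172). The causes were not tested. A replicate block for the sexes also gave 0 calls among the 10 genes, with a log2 difference of 0.06 for Il1rl1. The deviations of same-numbered cultures correlated at 0.40, -0.22 and 0.28, so that the number was not read as a pairing. Depth limits Il1r1, Irak3 and Il1rap most.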

Other observations

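Among the genes of the MAP kinase list, Mapk8, which encodes JNK1, was at 2.14 CPM in PMC-303 and at 2.06 CPM in PMC-306. In the primary cultures it was at 22.7 CPM in female 1, 24.5 CPM in male 1 and 23.0 CPM in male 2, but at 2.55 CPM in female 2, 3.69 CPM in female 3 and 3.93 CPM in male 3. The levels of the first 3 and the last 3 cultures did not overlap. Map3k8, the kinase TPL2, was higher in the same 3 cultures, at 20.9, 15.02 and 13.4 CPM in female 1, male 1 and male 2 against 4.39, 7.38 and 3.41 CPM in female 2, female 3 and male 3. Il1rap, at 17.4, 17.6 and 14.99 CPM in the first 3 cultures and 32.4, 22.1 and 18.6 CPM in the others, and Il1rl2, at 6.11, 6.85 and 6.902 CPM against 12.3, 8.96 and 8.86 CPM, were lower in the first 3. Il1r2 was higher there, at 99.2, 47.3 and 40.9 CPM against 26.3, 36.1 and 19.8 CPM. Il1rl1 overlapped, at 6796, 7417 and 7066 CPM in the first 3 cultures and at 8199, 6763 and 6307 CPM in the others. The split was taken from the Mapk8 values, these genes were named after their values were seen, and no test was made. Over all genes compared, the same 3 cultures were also closest to each other. Their chi-square per degree of freedom was 29.2 for female 1 with male 1 and 22.98 for female 1 with male 2. It was 26.6 for male 1 with male 2, and 45.8 to 76.7 for the other pairs of primary cultures. The comparison of sexes took no account of this split, which crosses the sexes. How many of all genes separate these 3 cultures was not counted, so the split cannot be called particular to the genes named.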
